A study of Mus musculus with 6 samples.

Results

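The replication-dependent histone genes are the clustered copies that encode the linker histone H1 and the core histones H2A, H2B, H3 and H4. Members were all symbols of the deposited count table that start with Hist1h, Hist2h, Hist3h or Hist4h and have at least 10 reads summed over the 6 libraries. This rule took 63 of the 68 such symbols and of 24063 symbols in all, with 5 for H1, 17 for H2A, 16 for H2B, 12 for H3 and 13 for H4. Of the 5 symbols left out, Hist1h1t had 6 reads and Hist1h2aa, Hist1h2ba, Hist1h2bq and Hist1h2br had 1 each, whereas the members with the fewest reads were the pseudogene Hist3h2bb-ps with 15 and Hist1h2bp with 18.

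RNA came from LSK cells of mouse bone marrow, sorted as lineage negative, cKit+ and Sca1+, a fraction that holds haematopoietic stem cells and early progenitors. In 3 libraries the mice were Arid2fl/fl:MxCre+ (labelled knockout) and in 3 they were MxCre+ alone (control), all of the C57/BL6 background. Both groups thus carried the interferon-inducible Mx1-Cre transgene, which is not restricted to blood cells, and all mice received pIpC, the double-stranded RNA analogue that switches it on, at 6 to 8 weeks of age and were sampled 6 weeks later. Arid2 encodes a subunit of the PBAF chromatin remodeller. Because the labels do not tie libraries to animals, the spread behind each p-value is that between libraries and may be technical. For the controls it cannot be technical alone, since sex-linked reads, given below, marked animals of both sexes.

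Cells in S phase need new histones for the copied DNA, and these gene clusters supply most of them. Their genes usually lack introns, and their mRNAs end in a short stem-loop that is bound by the stem-loop binding protein Slbp, in place of the poly(A) tail of other mRNAs. Some cluster genes can also make a longer, polyadenylated mRNA, which is known from cells that have stopped dividing. The libraries studied here were made from poly(A)-selected RNA, so a read of a cluster gene reports a polyadenylated or carried-over transcript and not the bulk of its mRNA.

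The stem-loop is shown first because it sets these mRNAs apart from others. A perfect stem of 6 base pairs around a loop of 4 bases, starting with GG, was found after the stop codon in the GENCODE M21 models (GRCm38, the mm10 assembly) of 45 of the 63 members. For Hist1h1a the annotated model ends inside its stem-loop and for Hist1h1b just after the stop codon, so a missing match says only that these letters are not in the model. Examples from each class are given 5′ to 3′ on the transcribed strand, with the stem-loop in capitals.
Hist1h1c (H1): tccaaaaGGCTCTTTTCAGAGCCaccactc
Hist3h2a (H2A): caccaaaGGCTCTTTTCAGAGCCacccaca
Hist3h2ba (H2B): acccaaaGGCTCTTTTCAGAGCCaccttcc
Hist1h3c (H3): aaaaaaaGGCTCTTTTAAGAGCCacctaag
Hist1h4i (H4): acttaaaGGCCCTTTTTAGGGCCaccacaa
Hist1h4c (H4): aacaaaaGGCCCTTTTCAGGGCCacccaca
Hist1h4b (H4): tacaaaaGGTCCTTTTCAGGACCactcact

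These stem-loops lie at chr13:23739512-23739527 (plus strand) for Hist1h1c, chr11:58955172-58955187 (plus) for Hist3h2a, chr11:58949349-58949364 (plus) for Hist3h2ba, chr13:23745047-23745062 (minus) for Hist1h3c, chr13:22040966-22040981 (minus) for Hist1h4i, chr13:23698089-23698104 (minus) for Hist1h4c and chr13:23757366-23757381 (plus) for Hist1h4b. The form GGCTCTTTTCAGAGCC occurred in 26 members of H1, H2A, H2B and H3 and in no H4 member. All H4 stem-loops found had another stem, with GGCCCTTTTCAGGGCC in 7 members, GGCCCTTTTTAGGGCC in 2, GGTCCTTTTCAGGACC in 2 and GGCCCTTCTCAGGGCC in 1. In 22 of the 45 members the gene model ran on for more than 100 bases after the stem-loop. A poly(A) signal, AATAAA or ATTAAA on the transcribed strand, stood within the last 40 bases of a model of 14 members, among them Hist1h1c, Hist3h2a, Hist3h2ba, Hist2h2be, Hist1h4i and Hist4h4.

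The members lie in 4 places of the genome. The Hist1 genes on chromosome 13 form a block of 21 members (21715763 to 22043676) and one of 28 members (23531050 to 23764406). Another 10 Hist2 members lie on chromosome 3 (96219865 to 96270132), 3 Hist3 members on chromosome 11 (58948920 to 58956830) and Hist4h4 on chromosome 6 (136801553 to 136804415). Among the members, 10 pairs of an H2A and an H2B gene start back to back, 173 to 302 bases apart, so their promoter windows overlap.

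Promoters of 56 members were matched in RefSeq (GRCm38.p6) as 250 bases before to 50 after the start. CCAAT, the box bound by the factor NF-Y, was present in all 5 H1, 17 H2A, 12 H2B and 10 H3 promoters but in 3 of 12 for H4, against 37.4% of all 32851 mouse promoters. The octamer ATTTGCAT, a site of Oct-1, was in 6 of 17 H2A and 5 of 12 H2B promoters, in none of H1, H3 or H4, and in 1.74% of all. AAACACA, known from H1 promoters, was in 4 of 5 H1 promoters, 1 of H2A and 1 of H2B, against 7.18% of all. TATAAA was in 33 of the 56 and in 13.6% of all. All 4 motifs were searched on both strands and counted one by one, and a match describes the sequence alone.

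The promoters of the linker genes Hist1h1a and Hist1h1b, which had the lowest log2 fold changes of the H1 class, and of Hist1h1c, which had the highest, are given 5′ to 3′ with these motifs in capitals. They cover chr13:23763418-23763717 (plus strand), chr13:21780576-21780875 (minus) and chr13:23738557-23738856 (plus).
Hist1h1a: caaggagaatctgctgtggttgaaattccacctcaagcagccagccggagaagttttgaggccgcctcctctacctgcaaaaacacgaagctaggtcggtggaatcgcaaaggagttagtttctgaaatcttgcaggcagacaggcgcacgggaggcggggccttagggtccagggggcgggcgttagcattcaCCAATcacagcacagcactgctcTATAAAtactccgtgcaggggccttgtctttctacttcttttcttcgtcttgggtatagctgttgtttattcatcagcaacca
Hist1h1b: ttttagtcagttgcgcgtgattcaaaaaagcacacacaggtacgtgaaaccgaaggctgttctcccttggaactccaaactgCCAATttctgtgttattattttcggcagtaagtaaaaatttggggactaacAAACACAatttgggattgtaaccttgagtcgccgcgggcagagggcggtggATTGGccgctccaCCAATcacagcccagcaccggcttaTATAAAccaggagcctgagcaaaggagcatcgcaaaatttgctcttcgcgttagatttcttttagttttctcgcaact
Hist1h1c: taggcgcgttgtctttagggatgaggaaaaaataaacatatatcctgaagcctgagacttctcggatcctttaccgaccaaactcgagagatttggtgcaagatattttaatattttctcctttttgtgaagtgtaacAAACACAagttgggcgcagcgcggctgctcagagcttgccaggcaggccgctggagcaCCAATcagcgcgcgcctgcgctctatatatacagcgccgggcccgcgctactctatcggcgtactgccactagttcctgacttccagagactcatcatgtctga

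Library totals ran from 12408966 to 28185678 counted reads. Arid2 itself had 156 ± 6.15 CPM (read counts scaled to library totals adjusted by TMM; SD, n = 3) in the libraries labelled knockout and 155.8 ± 8.46 CPM in controls, so gene-level counts do not check the labels. Xist and Y-linked reads marked control replicates 1 and 3 as male and the other 4 libraries as female. Of the sort gate genes, Kit had 439 ± 11 against 557.4 ± 86.1 CPM, and Ly6a, which encodes Sca1, 13.5 ± 1.57 against 20 ± 2.1 CPM (edgeR adjusted p = 0.0814 and 0.0378). Markers of other cells were present in every library. Erythroblast markers were higher in the libraries labelled knockout for 6 of 11 genes tested (summed CPM 149.3 to 445.5 against 84.3 to 211.3). Hba-a1 and Hba-a2, both among the 6, had the same CPM in every library and cannot be read as separate observations. Mature neutrophil markers were higher for 5 of 12 (7190 to 9211 against 2979 to 5755). Monocyte and macrophage markers were higher for 7 of 13 (2492 to 3202 against 1555 to 1798). None of these markers passed as lower at an edgeR adjusted p under 0.05. Hemgn, Mmp9 and Cd163 had negative log2 fold changes (−0.41, −0.14 and −0.03). No gene of these lists was at 0 in all libraries. Over all symbols tested, 3.85% were higher and 4.58% lower. Of 8 B and plasma cell markers 1 was lower (47.2 to 56 against 53 to 66.8), and of 8 T and NK cell markers none passed in edgeR (2 lower at an unadjusted p under 0.05, 1 lower in DESeq2; 248 to 317.5 against 197.4 to 274.2). Their part in the histone values was not tested, and in bulk samples fewer cells of a type and less RNA per cell cannot be told apart.

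Cluster genes gave few reads. The 63 members summed to 1280 to 3106 reads per library, and 49 of them had under 200 reads over all 6 libraries. The 6 members with the most reads, Hist1h1c, Hist2h2be, Hist3h2a, Hist1h4i, Hist1h2bc and Hist1h2bg, held 57.6% of the reads, and 4 of these 6 have the poly(A) signal at the end of a model. Reads could not always be assigned to 1 copy. In 30 members over 50% of all 50-base stretches of the gene model recur in another gene, with a median of 78.9% in H2A and 2.25% in H1. The pairs Hist2h2aa1 and Hist2h2aa2 (42 reads each) and Hist2h3c1 and Hist2h3c2 (26 each) have the same count in every library, and Hist1h2ao and Hist1h2ap differ by at most 3 reads. All 17 H2A members overlap another annotated gene on the opposite strand. The sources used here do not say how the authors assigned shared reads or whether they used strand, so values of single copies in these groups are uncertain.

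Between the genotype labels, 1 member passed the test across all genes (edgeR quasi-likelihood test, Benjamini-Hochberg adjusted p under 0.05). Hist3h2ba, an H2B gene, was lower in the libraries labelled knockout. Of 41 members tested, 1 was lower, 0 higher and 40 not past the test. Over all 13679 symbols tested, 4.58% were lower and 3.85% higher, so 1 of 41 is not above the background. At an unadjusted p under 0.05, 4 members were lower and 0 higher, and 12.7% of all symbols were lower at that level. The other 22 members, with 15 to 72 reads each, did not pass the filter on low counts.

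The tested members had a median log2 fold change of −0.36 against 0.00 for all symbols, and 35 of 41 values were negative (50.4% of all symbols). That median cannot be taken as support for a difference, since 9 of the 41 reached the filter's level in all 3 controls but not in all 3 libraries labelled knockout, and 0 the other way. Counted over all 63 members without a filter, 52 had a lower mean CPM in the libraries labelled knockout. The share of all symbols was not counted in this way, and near-identical copies are not separate observations. Control replicate 1 had the highest CPM in 34 of the 63, and without it the median over the 41 tested members was −0.05. With no filter, the same edgeR test gave a median of −0.36 over 63 members and called 3 lower, Hist1h1b, Hist1h2bc and Hist1h1a (4.08% of all symbols were called lower in that fit).

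Other settings called 0 to 4 members lower and none higher. Hist3h2ba alone was lower with the scaling of DESeq2 (4.47% of all symbols lower) or upper-quartile scaling (5.04%) in edgeR. DESeq2 itself called Hist1h1a, Hist1h1b and Hist1h2bc (5.86%), and these with Hist3h2ba made 4 at an edgeR adjusted p under 0.1 (7.68%) and with a replicate block (7.33%). No member was lower with limma-voom (4.35%), with a filter of at least 1 CPM in at least 3 libraries (4.84%) or with a sex term (0.263%). The same held without knockout replicate 1 (1.92%), 2 (1.24%) or 3 (2.15%) and without control replicate 1 (2.04%), 2 (3.95%) or 3 (2.93%). In the fits with no call, 1 to 9 members were lower at an unadjusted p under 0.05 (2.44% to 19.6% of those tested, against 6.53% to 12.9% of all symbols) and 0 higher. The 9 were among 46 tested without control replicate 3, where 11.2% of all symbols were lower at that level.

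**Figure D1:**
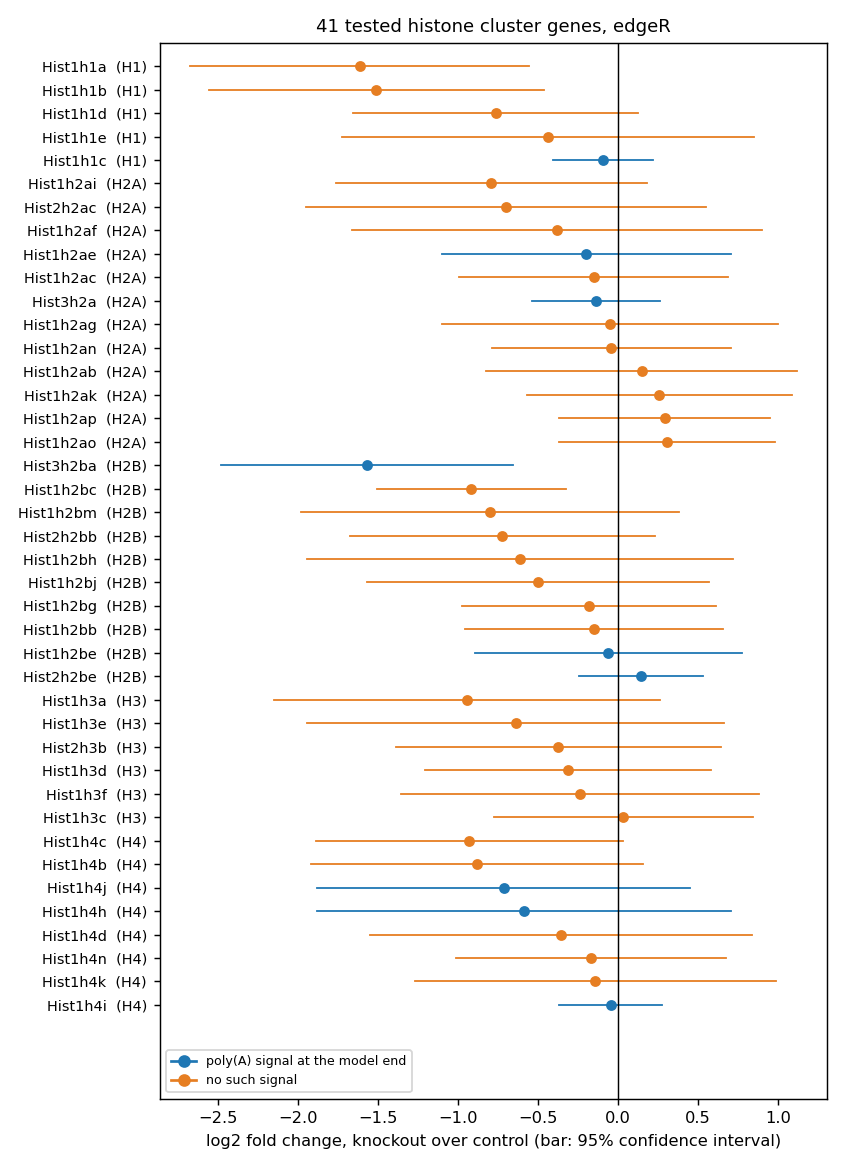
Log2 fold change (x axis, knockout over control, edgeR) of each of the 41 tested members, ordered by class, with bars for the 95% confidence interval. Points lie between −1.62 (Hist1h1a) and 0.31 (Hist1h2ao), and colour marks whether a gene model ends in a poly(A) signal.

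Control replicate 1 stood apart from the other libraries. It had the highest CPM of the 6 in 34 of the 63 members and in 22 of the 41 tested (53.7%), against 17% of all symbols tested. Without it, the median over the same 41 members was −0.05, with 24 of 41 negative, and no member was called. With a sex term, which leaves control replicate 2 as the sole control of the same sex, the median was −0.02 with 21 of 41 negative. Sex and the other differences between control replicate 2 and the male controls cannot be told apart.

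**Figure D2:**
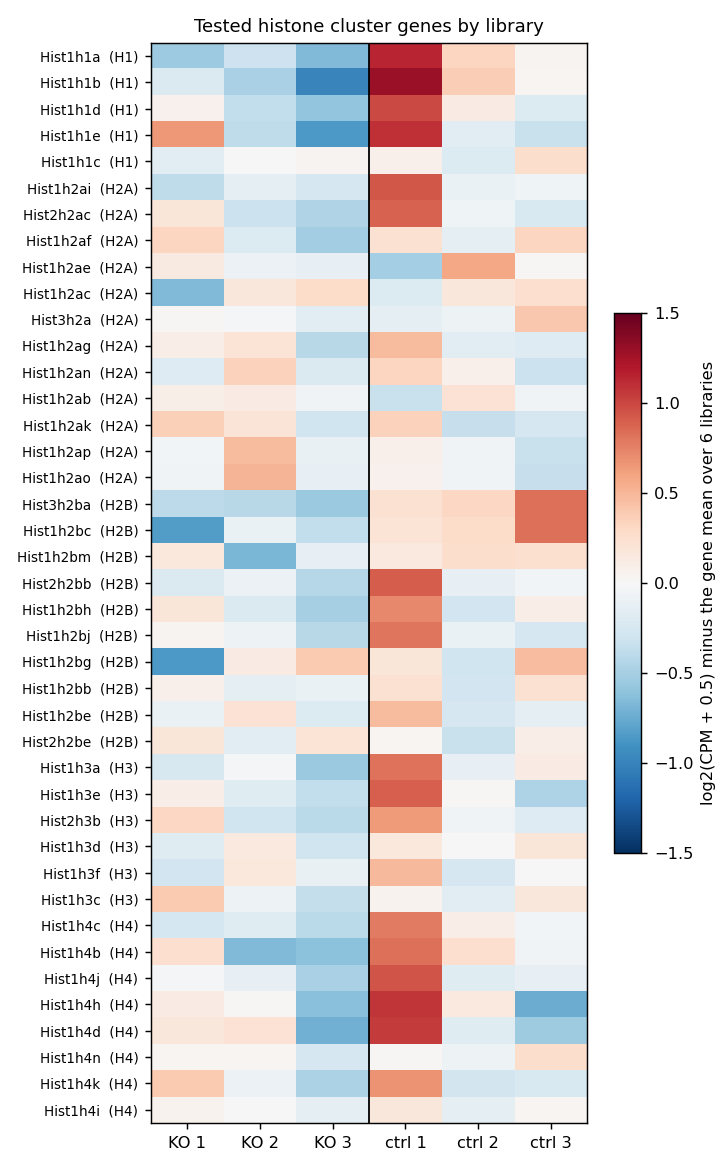
Rows are the 41 tested members and columns the 6 libraries (KO, labelled knockout, and ctrl, control), coloured by log2(CPM + 0.5) minus the row mean. Control replicate 1 is the highest library in 22 of the 41 rows.

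Read counts were then summed within each class, which keeps members with few reads. Since the counting of reads shared between copies is not stated, a sum may hold such reads more than once or lack them. H1 genes summed to 26.8, 26 and 25 CPM in the libraries labelled knockout (replicates 1 to 3) and to 40.3, 26.2 and 31.5 CPM in controls. H2B genes had 29.1, 32 and 34.7 against 42.5, 31.2 and 44.7 CPM. For H4 the sums were 22.3, 19.8 and 15.3 against 33.5, 20.1 and 18.6 CPM. In all of these classes the groups overlapped, and the log2 ratios of the means were −0.33 for H1, −0.31 for H2B and −0.33 for H4.

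H2A genes summed to 26.6, 29.3 and 23.2 against 30.8, 27 and 28.7 CPM, a log2 ratio of −0.13. H3 genes had the fewest reads, with 6.5, 5.61 and 4.57 against 11.2, 5.86 and 5.72 CPM and a log2 ratio of −0.45. All 63 members together had 111.2, 112.7 and 102.7 against 158.2, 110.4 and 129.2 CPM (log2 ratio −0.28), and the lowest control lay below 2 of the libraries labelled knockout. Without control replicate 1 the log2 ratios were −0.16 for H1, −0.08 for H2A, −0.25 for H2B, −0.06 for H3, −0.01 for H4 and −0.14 for all members.

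**Figure D3:**
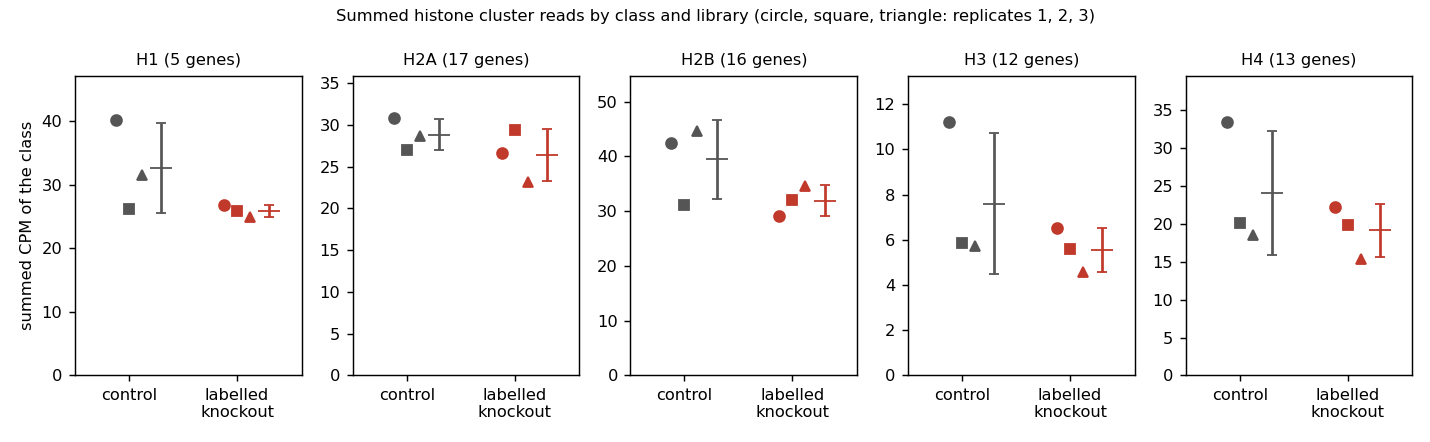
Summed CPM (y axis) of the members of each histone class in each library, grouped by label, with the replicate given by the symbol and the mean ± SD beside the points. The control circle (replicate 1, 40.3 CPM for H1 and 33.5 CPM for H4) stands above all others in H1, H2A, H3 and H4, and the groups overlap in every panel.

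The linker histones, which bind the DNA between nucleosomes, had log2 fold changes from −1.62 to −0.09 over the 5 genes. Hist1h1c (H1.2; ENSMUSG00000036181, chromosome 13, 23738808 to 23740367, plus strand) held 71.1% of the class's reads. Its level was 18.4, 20.8 and 21.4 CPM in the libraries labelled knockout and 21.9, 17.9 and 25.1 CPM in controls. The groups overlapped throughout, with a log2 fold change of −0.09 (SE 0.14, 95% interval −0.41 to 0.22, edgeR adjusted p = 0.724).

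Hist1h1a (H1.1; ENSMUSG00000049539, chromosome 13, 23763666 to 23764406, plus strand) had 0.476, 0.645 and 0.401 CPM against 2.64, 1.28 and 0.964 CPM. Hist1h1b (H1.5; ENSMUSG00000058773, chromosome 13, 21779883 to 21780625, minus strand), which was singled out after its values were seen, had 1.32, 1.01 and 0.562 against 4.67, 2.24 and 1.65 CPM. In both genes each library labelled knockout lay below each control, and control replicate 1 was highest. The log2 fold changes were −1.62 (SE 0.46) for Hist1h1a and −1.51 (SE 0.46) for Hist1h1b, with edgeR adjusted p = 0.0691 and 0.0811 (n = 3 each), so neither passed. DESeq2 called both (adjusted p = 0.0494 and 0.0268), and without control replicate 1 their log2 fold changes were −1.12 and −0.99 with edgeR adjusted p = 0.169 and 0.203.

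Hist1h1d (H1.3) had 2.7, 1.86 and 1.52 against 5.53, 2.81 and 2.14 CPM (log2 fold change −0.77, edgeR adjusted p = 0.27), and without control replicate 1 the log2 fold change was −0.29. Hist1h1e (H1.4) had 3.91, 1.65 and 1.04 against 5.47, 1.99 and 1.72 CPM (−0.44, edgeR adjusted p = 0.683). Groups overlapped in both genes, and replicate 1 was the highest library under either label. The models of Hist1h1e and the H2B gene Hist1h2be overlap on 1 strand, so their reads may be mixed. Per kilobase of gene model, control levels were 13.9 CPM for Hist1h1c, 3.84 for Hist1h1b, 2.2 for Hist1h1a, 1.59 for Hist1h1e and 0.47 for Hist1h1d, whose model of 7425 bases lowers its value.

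Among H2B genes, whose protein pairs with H2A in the nucleosome, Hist3h2ba (ENSMUSG00000056895, chromosome 11, 58948920 to 58949533, plus strand) had 0.423, 0.403 and 0.321 CPM in the libraries labelled knockout and 0.922, 0.995 and 1.65 CPM in controls. The groups did not overlap, and control replicate 3 was highest. These values rest on 8, 10 and 4 reads against 15, 28 and 24 reads. Its log2 fold change was −1.57 (SE 0.40, 95% interval −2.49 to −0.66, edgeR adjusted p = 0.0475, n = 3 each). The call was lost when any 1 of the 6 libraries was left out (edgeR adjusted p = 0.0752 to 0.151), with DESeq2 (0.0733) and with limma-voom (0.0624). It was also lost in edgeR with no filter (adjusted p = 0.053) and with a sex term (log2 fold change −1.34, edgeR adjusted p = 0.384). The gene did not reach the filter of at least 1 CPM in at least 3 libraries.

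Hist1h2bc (ENSMUSG00000018102, chromosome 13, 23684199 to 23692908, plus strand) is annotated as a spliced gene, with its coding exon joined to a distant exon. It had 3.81, 6.74 and 5.46 CPM against 8.42, 8.85 and 13.2 CPM, with no overlap between the groups and the highest value in control replicate 3. Its log2 fold change was −0.92 (SE 0.26) and it did not pass in edgeR (adjusted p = 0.0654), whereas DESeq2 called it (adjusted p = 0.0101, with 5.86% of all symbols lower). In edgeR it passed with no filter (adjusted p = 0.0236) and with a replicate block (0.0234). It did not pass with limma-voom (adjusted p = 0.0761) or with any 1 library left out (edgeR adjusted p = 0.0896 to 0.164). The log2 fold change was −0.69 without control replicate 3 and −0.72 with a sex term. Hist2h2be, with the most H2B reads, had 14.4, 11.2 and 14.6 against 12.9, 9.88 and 13.6 CPM (log2 fold change 0.15, 95% interval −0.24 to 0.53, edgeR adjusted p = 0.651), and the log2 fold change was 0.020 without control replicate 2. The groups overlapped and replicate 2 was lowest under both labels. Hist1h2bg had 3.33, 7.1 and 8.67 against 7.44, 5.15 and 9.09 CPM (−0.18, edgeR adjusted p = 0.793), with its lowest library in replicate 1 labelled knockout and overlapping groups.

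The pseudogene Hist3h2bb-ps had 0.0355 to 0.369 CPM in the 6 libraries and was not tested. Of the H2B class, 10 of 16 members were tested, 9 with negative values. The class median was −0.56, or −0.09 without control replicate 1 and 0.13 with a sex term. Every H2B member not yet named had at most 3.01 CPM in any library, the value of Hist2h2bb in control replicate 1.

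In the test with all 6 libraries, H2A genes had the class median nearest 0, −0.09 over 12 tested. Without control replicate 1 the class medians were −0.06 for H2A, 0.002 for H4, 0.05 for H3, −0.09 for H2B and −0.29 for H1. Hist3h2a (ENSMUSG00000078851, chromosome 11, 58954685 to 58956830, plus strand) held 39.7% of the H2A reads. It had 11.2, 10.8 and 9.79 CPM against 9.9, 10.4 and 14.7 CPM (log2 fold change −0.14, 95% interval −0.54 to 0.27, edgeR adjusted p = 0.681). Control replicate 3 was highest, and the other 5 libraries lay between 9.79 and 11.2 CPM. Its annotated span also overlaps Trim17 on the same strand. The near-identical Hist1h2ao and Hist1h2ap had 2.06, 3.27 and 1.93 against 2.27, 2.06 and 1.58 CPM for the first and log2 fold changes of 0.31 and 0.29 (edgeR adjusted p = 0.569 and 0.583), which were 0.013 and 0.022 without knockout replicate 2. They share 93.5% and 93.1% of their 50-base stretches with other genes and cannot be read as separate observations.

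Hist1h2ai was the sole H2A gene without overlap between the groups, at 0.846, 1.09 and 0.963 against 2.83, 1.14 and 1.17 CPM (log2 fold change −0.79, edgeR adjusted p = 0.293, or −0.25 without control replicate 1). Control replicates 2 and 3 were less than 0.1 CPM above the highest library labelled knockout, and 90.1% of its stretches recur elsewhere. Both genes passed the filter in 4 of the back-to-back pairs. Hist2h2ac, which starts 239 bases from Hist2h2be on the other strand, had 0.898, 0.484 and 0.401 against 1.78, 0.675 and 0.551 CPM and a log2 fold change of −0.70 (edgeR adjusted p = 0.476). Hist1h2ac, 251 bases from Hist1h2bc, had 0.898, 1.98 and 2.17 against 1.41, 1.99 and 2.14 CPM and −0.15 (edgeR adjusted p = 0.84). Their H2B neighbours had 0.15 and −0.92. In the remaining pairs, log2 fold changes were −0.20 for Hist1h2ae and −0.18 for Hist1h2bg, and −0.05 for Hist1h2ag and −0.50 for Hist1h2bj.

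H3 and H4 form the tetramer at the centre of the nucleosome, and no gene of either class passed. Hist1h3c, with the most H3 reads, had 1.69, 1.09 and 0.802 against 1.23, 0.995 and 1.38 CPM (log2 fold change 0.03, edgeR adjusted p = 0.966). Hist2h3b had 1.37, 0.726 and 0.642 against 1.84, 0.959 and 0.827 CPM (−0.37, edgeR adjusted p = 0.656). Hist1h3e had 0.74, 0.524 and 0.401 against 1.66, 0.675 and 0.344 CPM (−0.64, edgeR adjusted p = 0.538). In the last pair of genes replicate 1 was highest under both labels. Hist1h3a had the lowest value of the class, −0.95, with 0.423, 0.565 and 0.241 against 1.41, 0.497 and 0.689 CPM and an edgeR adjusted p of 0.313. The groups overlapped, and without control replicate 1 the log2 fold change was −0.41.

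Among H4 genes, Hist1h4i (ENSMUSG00000060639, chromosome 13, 22040636 to 22041362, minus strand) held 49.7% of the reads. It had 11.2, 10.8 and 9.79 CPM against 12.2, 9.77 and 11 CPM (log2 fold change −0.05, 95% interval −0.37 to 0.28, edgeR adjusted p = 0.879). Hist1h4c had the lowest value, with 0.581, 0.645 and 0.481 against 1.72, 0.888 and 0.758 CPM, no overlap and a log2 fold change of −0.93 (95% interval −1.89 to 0.03, edgeR adjusted p = 0.214), or −0.52 without control replicate 1. Hist1h4b had 1.74, 0.686 and 0.722 against 2.83, 1.74 and 1.31 CPM (−0.88, edgeR adjusted p = 0.273), with the groups overlapping through replicate 1 of the libraries labelled knockout. Its log2 fold change was −1.47 without that library and −0.55 without control replicate 1. Hist1h4d had 2.22, 2.3 and 0.963 against 4.49, 1.63 and 1.17 CPM (−0.36, edgeR adjusted p = 0.722), or 0.39 without control replicate 1. Hist4h4, alone on chromosome 6, had 0.528, 0.565 and 0.241 against 0.738, 0.533 and 0.138 CPM and was not tested.

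In all, 6 of the 41 tested members, and the same number of all 63, had every library labelled knockout below every control, and 0 had the opposite. They were Hist1h1a, Hist1h1b, Hist1h2ai, Hist1h2bc, Hist3h2ba and Hist1h4c. Over all symbols tested, 16.1% lay below and 15.1% above in this sense, so 6 of 41 below was near the background.

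When members were split by whether a GENCODE model ends in a poly(A) signal, a division chosen after the values were seen, the groups overlapped in 1 set and not in the other. The 14 members with the signal summed to 62.1, 60.4 and 60.7 CPM in the libraries labelled knockout and 68.7, 56.4 and 70.9 CPM in controls (log2 ratio −0.10). The 49 members without it summed to 49.1, 52.3 and 42 against 89.5, 54 and 58.3 CPM (log2 ratio −0.49). In the second set control replicate 1 was highest, control replicate 2 lay next to replicate 2 labelled knockout, and the log2 ratio was −0.18 against that female control and −0.23 without control replicate 1. Without the abundant genes Hist1h1c, Hist2h2be, Hist3h2a and Hist1h4i, the log2 ratio of the first set was −0.49 as well. Over the tested members, the median log2 fold change was −0.14 with the signal (9 tested) and −0.38 without it (32 tested). These medians were −0.03 and −0.06 without control replicate 1, and 0.02 and −0.06 with a sex term. The difference between the sets was not tested.

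**Figure D4:**
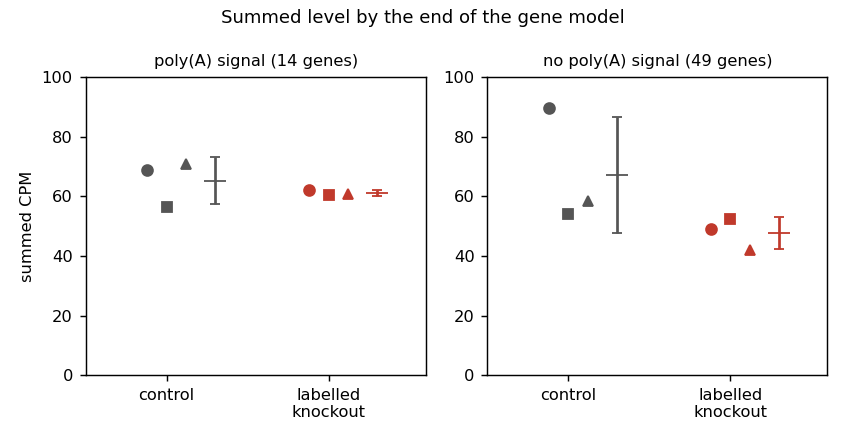
Summed CPM (y axis) by library of the 14 members whose gene model ends in a poly(A) signal and of the 49 others, with mean ± SD beside the points and replicates as circle, square and triangle. The groups overlap on the left (60.4 to 62.1 against 56.4 to 70.9 CPM) and not on the right (42 to 52.3 against 54 to 89.5 CPM).

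By position, the tested genes of the first chromosome 13 block had a median log2 fold change of −0.14 (10 of 13 negative) and those of the second block −0.37 (20 of 22 negative). The 4 tested Hist2 genes had a median of −0.54 with 3 negative. For Hist3 both tested genes were negative, at −0.14 and −1.57. Without control replicate 1, the first block had a median of 0.07 (5 of 13 negative) and the second −0.12 (15 of 22). The Hist2 median was then −0.008, with 2 of 4 negative. With a sex term the medians were 0.06, −0.16 and −0.10 in the same order. Over all symbols tested, 50.4% of values were negative.

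Genes that act on these histones were read from lists. Of 25 genes for stem-loop processing and decay, among them Slbp and the U7 particle genes Lsm10 and Lsm11, 0 were higher and 0 lower in edgeR, DESeq2 or limma-voom (2 lower at an unadjusted edgeR p under 0.05), with a median log2 fold change of −0.02 (lowest −0.21, highest 0.10). Of 22 histone chaperone genes, which carry histones to DNA, 0 passed in edgeR (4 lower and 1 higher at an unadjusted p under 0.05, 1 higher in DESeq2, where 5.73% of all symbols were higher), with a median of −0.05. Among 15 genes of histone gene transcription, 2 were higher and 1 lower, against 3.85% and 4.58% of all symbols. E2f2, a cell cycle transcription factor, rose from 52.5 ± 3.24 to 93.2 ± 13.5 CPM (SD over 3 libraries each), a log2 difference of 0.83 with an edgeR adjusted p of 0.00492.

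Ccne1 encodes cyclin E1, which with Cdk2 activates the histone gene coactivator Npat, and rose from 19.1 ± 2.23 to 30.7 ± 3.53 CPM (0.68 on the log2 scale, edgeR adjusted p = 0.0165, or 0.0576 without knockout replicate 2 and 0.0524 without control replicate 1). Nfya, a subunit of the CCAAT-binding factor, fell from 232.4 ± 8.66 to 187.6 ± 12.1 CPM (−0.31, edgeR adjusted p = 0.0307), a call lost when any 1 library was left out (edgeR adjusted p = 0.0525 to 0.102). Of 45 S phase genes 1 was higher (Rrm2, log2 fold change 0.46) and 3 lower (among them Ung, −0.31, and Rfc3, −0.27), with a median of 0.00. Against the same shares of all symbols, the S phase counts were near the background. Leaving out any 1 library ended the calls of Ung (edgeR adjusted p = 0.0729 to 0.142) and Rfc3 (0.0681 to 0.156). Rrm2 passed without control replicate 2 (0.0372) or 3 (0.029) but not without any of the other 4 libraries (0.0639 to 0.0967). Ung was also lost with limma-voom (0.0511) and with DESeq2 size factors in edgeR (0.0531), and Rfc3 with DESeq2 (0.0546) and with no filter (0.0598). The summed S phase list was 7476, 6933 and 7115 CPM against 7559, 7261 and 7212 CPM, and control replicate 1 was again highest, within 10% of every other library.

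Replacement and linker variants are made outside S phase as well, mostly from mRNAs with ordinary poly(A) tails. Of the 11 such genes listed, 3 were lower and 8 did not pass (4.58% of all symbols were lower). In DESeq2, 5 of them were lower (5.86% of all symbols). The linker variant H1f0 (H1.0) had 141.3 ± 30.3 CPM in controls and 64.5 ± 4.15 CPM in the libraries labelled knockout, and H1fx (H1.10) 56.9 ± 17.2 and 18.6 ± 1.91 CPM. Their log2 fold changes were −1.13 (SE 0.14) and −1.61 (SE 0.20), with edgeR adjusted p = 0.00492 and 0.00457. H3f3b, which encodes H3.3, fell by 0.32 on the log2 scale, from 731.8 ± 43.9 to 587.4 ± 20 CPM (edgeR adjusted p = 0.0334). That call was kept without control replicate 2 (0.0379) and lost without any other library (edgeR adjusted p = 0.0566 to 0.13), whereas H1f0 and H1fx passed with each library left out. H1f0 and H1fx had control replicate 3 as their highest library, and H1fx kept every control at 46 CPM or more against at most 20.7 CPM. With the sex term no gene of any of these lists passed (−0.79 for H1f0 and −1.36 for H1fx, edgeR adjusted p = 0.0649 and 0.0842).

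**Figure D5:**
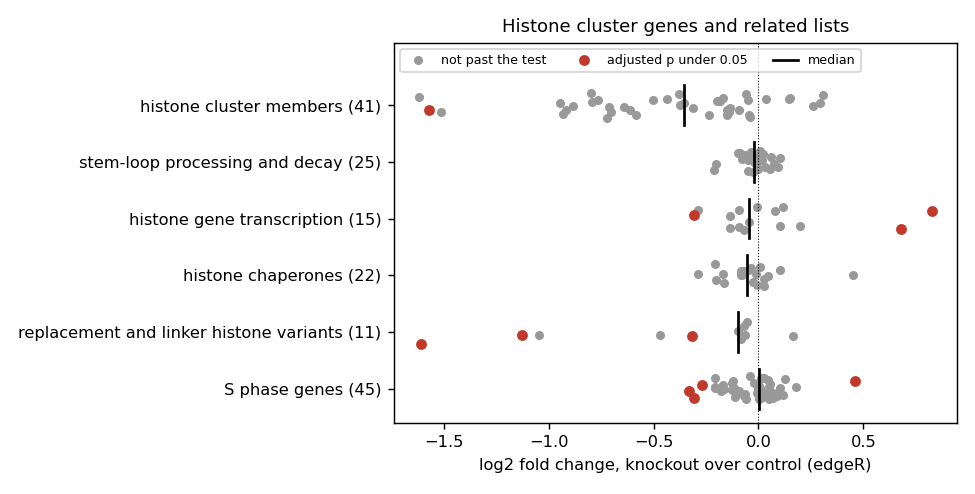
Log2 fold change (x axis, knockout over control, edgeR) of each tested gene of the histone clusters and of the related lists, with the number tested in brackets, the median as a black bar and genes past the test in red. The cluster members have a median of −0.36, against −0.02 for stem-loop processing genes and 0.00 for S phase genes.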

How the data were processed

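RNA was measured in 6 libraries, 3 labelled knockout and 3 control. The authors deposited raw read counts per gene symbol, with no normalization. STAR and mm10 are named per the submitters' processing notes. The counting tool and its handling of strand and of reads with several matches are not stated there. The test was edgeR 4.0.16 under R 4.3.3 (filterByExpr with minimum count 10 and minimum total 15, TMM scaling, quasi-likelihood F test, group as sole term), fitted on the whole table and adjusted over all 13679 symbols tested, threshold 0.05. CPM values use TMM-scaled totals, class sums carry no p, and SE and intervals come from the edgeR model. Positions and transcripts are from GENCODE M21, where all 63 members matched by symbol, and promoters from RefSeq.

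Named members are those past the test, the 3 with most reads and the highest and lowest log2 fold change of each class, and the Hist3 and Hist4 genes. From other lists, the genes past the test are named, except 1 that is not reported here. Any further gene was chosen after its values were seen. Members and lists were chosen with earlier results of these data known. Alternatives were DESeq2 1.42.0, limma-voom (limma 3.58.1), other scalings and filters, a replicate block, a sex term and each library left out. The procedure was also run on simulated data for knockout against control (13560 genes). It found 95% of 2-fold and 99% of 4-fold changes, with 8 false calls among 202. The simulation gave every gene the same added variance between libraries, with no sex difference and no outlying library. These shares therefore do not describe how well changes in cluster genes with few reads would be found.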

Additional observations from a re-analysis of the deposited data

How the results depend on the processing

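Depth limits these values: 49 of 63 members had under 200 reads in all. The count of members lower, 1 in the reported test, was 3 with no filter and with DESeq2, 0 with at least 1 CPM in at least 3 libraries (24 members tested), with limma-voom and with a sex term (0.263% of all symbols lower), 4 at an adjusted p under 0.1 (7.68% of all), and 0 in each fit that leaves out a library. No member was higher in any of these fits. The median log2 fold change over the members tested in each fit was −0.023 with a sex term. With a library left out it ran from −0.64 (without knockout replicate 1) to −0.038 (without control replicate 1). It was −0.55 without control replicate 2 and −0.21 without knockout replicate 3. Over the 41 members of the reported test, this median ran from −0.58 without knockout replicate 1 to −0.048 without control replicate 1.

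Against the female control alone, the log2 ratio of summed CPM was −0.017 for H1, 0.032 for H2B and −0.019 for all members. Against all 3 controls, but without the member with the most reads in each class, it was −0.95, −0.56 and −0.50 in the same order. With all members and a library left out it ran from −0.47 to −0.16 for H1, −0.21 to −0.04 for H2A, −0.45 to −0.21 for H2B, −0.62 to −0.06 for H3, −0.48 to −0.01 for H4 and −0.40 to −0.14 for all. Counting identical sets once, an alternative chosen after seeing the data, moved no sum by more than the spread between libraries.

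Signs turned with the sex term for Hist1h1c (0.17), Hist1h1e (0.17), Hist3h2a (0.020), Hist1h2bg (0.29), Hist1h4i (0.12) and Hist1h4d (0.20), none past the test. With a library left out, log2 fold changes ran from −0.21 to 0.023 for Hist1h1c, −1.12 to 0.26 for Hist1h1e, −0.24 to 0.056 for Hist3h2a, −0.44 to 0.13 for Hist1h2bg, −0.29 to 0.22 for Hist1h3c, −0.79 to 0.033 for Hist2h3b, −0.98 to 0.065 for Hist1h3e, −0.12 to 0.033 for Hist1h4i and −0.66 to 0.39 for Hist1h4d. The cause was not tested.

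The replicate numbers were not shown to pair the libraries: same-numbered deviations correlated at 0.36, 0.0031 and 0.38, and libraries 1 and 3 labelled knockout, but not 2, correlated best with the control of their number. With the replicate block, 4 members were lower (7.33% of all symbols).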
